A study of Mus musculus with 20 samples.

Results

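The Hox genes analysed here are the 39 mouse genes of the Hoxa, Hoxb, Hoxc and Hoxd clusters, taken from the deposited annotation by symbol (the letters Hox, a cluster letter and a number, without antisense transcripts). They are 39 of the 43432 annotated genes, with 11 in Hoxa, 10 in Hoxb, 9 in Hoxc and 9 in Hoxd. RNA sequencing covered 20 mouse cell libraries in 7 groups, and 34 of the 39 genes had enough counts to be tested among 15779 genes. Hoxb1, Hoxd1, Hoxd11, Hoxd12 and Hoxd13 were too low for the test, and their counts are given below.

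All groups carry the strain label Nude Mouse, a mouse without a thymus that accepts human grafts, and the labels give monoclonal culture for the malignant cells and both reference groups, in DMEM with fetal bovine serum at 10% for every group but ih_BCTC, whose medium they do not name. In 5 groups the labels call the cells malignantly transformed beside SU3, a human glioma stem cell line. C12 (3 libraries) is labelled as macrophages changed in vitro beside peritoneal washing cells with SU3, and ih_CTC (3) as macrophages from a peritoneal graft. ih_DCTC (3) is labelled as bone marrow dendritic cells changed in co-culture, ih_BCTC (3) as oligodendrocytes grown again from a brain graft, and ih_STC_BM (3) as mesenchymal stem cells from a tumour in a mouse with damaged and rebuilt bone marrow. The reference groups, called precursors by the study, are MDSC (3), suppressive cells of the myeloid series, and MSC (2), bone marrow mesenchymal stem cells of a normal mouse. The labels name neither animals nor separate cultures, so a p-value here reflects only how far these libraries spread, which may be technical, and a line may be a single clone.

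Hox genes encode homeodomain transcription factors that give cells along the head to tail axis, and along the limb, their regional identity. The genes of a cluster lie in order of their paralogue position: those of low number are switched on early and towards the head, those of high number late and towards the tail, and a high-numbered protein commonly dominates over lower ones where both are made. Connective tissue cells keep a site-specific set of active Hox genes in culture, while in blood formation a restricted set, including Hoxa9, Hoxa10 and Hoxb4, is active in stem and progenitor cells and declines as myeloid cells mature. Polycomb complexes hold Hox genes silent, trithorax complexes keep them active, and Pbx and Meis proteins bind DNA together with Hox proteins.

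Total expected counts ranged from 8794777 to 12400640 per library, and the share of reads in introns from 1.02% to 10.4%. The 10 leukocyte markers summed to 5.35 to 28.1 CPM, counts scaled to a common library total with TMM factors, in the 5 lines, to 6860 to 6930 in MDSC and to 2530 to 3723 in MSC. The 10 mesenchymal markers summed to 2928 to 11833 CPM in the lines, to 6029 to 6511 in MSC and to 23.4 to 25.4 in MDSC. Macrophage markers (9 of the 10 symbols were found) summed to 47.0 to 111 CPM in C12 and ih_CTC, the macrophage-labelled lines, to 1978 to 1993 in MDSC and to 5006 to 6544 in MSC, and dendritic markers to 7.22 to 15.5 CPM in ih_DCTC, the line with the dendritic label, and to 7958 to 8335 in MDSC. The 10 oligodendrocyte markers summed to 47.9 to 76.2 CPM in ih_BCTC, the line with that label, to 30.4 to 178 in the other lines, to 142 to 164 in MDSC and to 90.1 to 97.5 in MSC. In ih_BCTC, 3 of them were detected in every library and 4, Olig2, Sox10, Mog and Nkx2-2, had no count, and 3 or 4 of the 10 had none in each other group too. So the lines labelled macrophage and dendritic stood far below the reference groups in the markers of those cells and had mesenchymal ones, and the MSC libraries held leukocyte markers beside mesenchymal ones. In such bulk samples, fewer cells that make an RNA and less of it per cell cannot be told apart, and the part of these cell mixtures in the Hox differences was not tested.

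All 5 lines expressed many Hox genes, at a summed level far above both reference groups. The 39 genes together made up 288 ± 29.6 CPM (mean ± SD) in C12, 246 ± 10.98 in ih_CTC, 319.6 ± 63.7 in ih_DCTC, 251 ± 4.94 in ih_BCTC and 262 ± 71.9 in ih_STC_BM, against 7.89 ± 0.579 in MDSC (n = 3 each) and 68.8 ± 6.82 in MSC (n = 2). The lowest line library, with 184 CPM in ih_STC_BM, stood above the highest MSC library, with 73.6 CPM. With detection set at 1 CPM or more in every library of a group, 22 Hox genes were detected in C12, 27 in ih_CTC, 28 in ih_DCTC, 29 in ih_BCTC and 20 in ih_STC_BM. MSC had 17 detected Hox genes, and MDSC had only Hoxb3 and Hoxb4, which are active in blood progenitors.

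**Figure D1:**
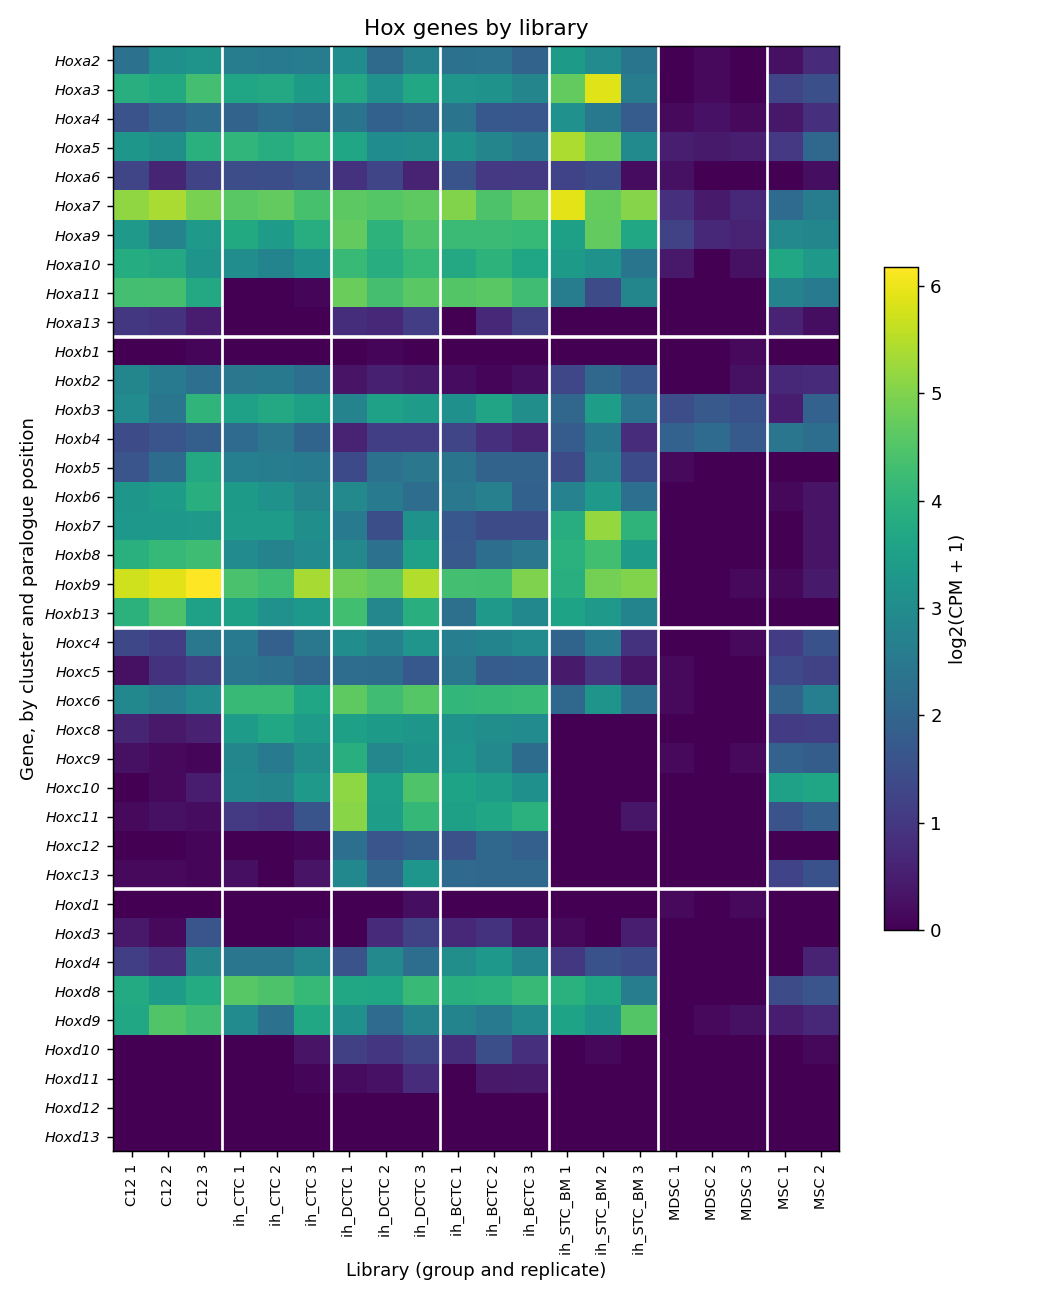
Level of 38 of the 39 Hox genes (rows, by cluster and position) in each of the 20 libraries (columns, by group) as log2(CPM + 1), dark for 0 and yellow for the highest. The 5 lines are bright over most of Hoxa and Hoxb, the MDSC columns are dark outside Hoxb3 and Hoxb4, and the Hoxc block is dark below Hoxc6 in C12 and ih_STC_BM.

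Against MDSC, the group that the study calls their precursor, the 3 lines with a myeloid label had higher levels of nearly all tested Hox genes. In C12, 29 of 34 were higher and 0 lower by edgeR's quasi-likelihood test at an adjusted p under 0.05, beside 61.7% of all tested genes called in either direction and 31.3% called higher. The 5 not called were Hoxb4, Hoxc9, Hoxc12, Hoxc13 and Hoxd10. The median log2 fold change of the 34 genes was 5.83, or 4.74 with genes at 0 counts in a group set at their bound, while that of all tested genes was 0.03. In ih_CTC, 28 were higher and 0 lower (55.3% of all genes called, 28.2% higher), with a Hox median of 6.04 (5.56 with bounds) against 0.08 overall. In ih_DCTC, 33 were higher and 1, Hoxb4, lower (59.3% called, 31.2% higher and 28.1% lower), with a median of 6.74 (5.58 with bounds) against 0.09. Line and MDSC libraries did not overlap for 29, 27 and 33 of the 34 genes, where 73%, 80.4% and 71.5% of all tested genes did not overlap. These 3 comparisons share the MDSC libraries, so they are not independent of each other. Several of the 34 genes, among them Hoxb6, Hoxb7, Hoxb8, Hoxb13 and Hoxd8, had no count in MDSC and had enough counts only through other groups. Such genes could not be called lower in a line, so the near absence of lower calls was partly fixed by the count filter. The shares of all tested genes include genes that were free to go either way.

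Some of these calls rest on few counts. Leaving out each library in turn gave 26 to 29 called genes for C12, 27 to 28 for ih_CTC and 32 to 34 for ih_DCTC. Hoxd3 in C12 was not called without C12 library 3 (adjusted p = 0.0902). Hoxc10 in C12 was not called without that library (0.228) or without any 1 of the MDSC libraries (up to 0.0694), and Hoxc11 in C12 was lost without C12 library 2 (0.0811) or 3 (0.0613) or any MDSC library. Hoxc13 in ih_CTC was lost without ih_CTC library 1 (0.0659) or 3 (0.129) or any MDSC library. The lower Hoxb4 of ih_DCTC was lost without MDSC library 2 (0.0684) or ih_DCTC library 1 (0.0854). In ih_DCTC, Hoxb2 was lost without MDSC library 1 or 2 or ih_DCTC library 2 (adjusted p up to 0.123) and Hoxd3 without MDSC library 1 or 3 or ih_DCTC library 3 (up to 0.0659). With the share of intron reads, which is higher in MDSC than in the lines, as a covariate, C12 lost Hoxa13 (adjusted p = 0.139), Hoxc10 (0.209) and Hoxc11 (0.361), ih_CTC lost Hoxc13 (0.0681) and ih_DCTC lost Hoxa13 (0.0692) and Hoxb4 (0.523).

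Against MSC, ih_STC_BM, the line with the mesenchymal label, differed in both directions, and all the lower genes lay in Hoxc. There, 17 of 34 Hox genes were higher and 5 lower (32.1% of all tested genes called, 14.8% higher and 17.4% lower). The higher genes were 8 of 11 in Hoxa, 7 of 9 tested in Hoxb and 2 of 5 tested in Hoxd, while the lower ones were Hoxc8, Hoxc9, Hoxc10, Hoxc11 and Hoxc13. The median log2 fold change was 1.94 (1.78 with bounds) against 0.02 for all genes, and 25 of 34 genes did not overlap, beside 46.5% of all genes. Leaving out each library in turn gave 19 to 24 called genes. Among others, Hoxa6, Hoxa9 and Hoxb2 each failed in at least 1 such fit (adjusted p up to 0.194, 0.124 and 0.163), for example without MSC library 1 (Hoxa6, Hoxa9, Hoxb2), MSC library 2 (Hoxa9, Hoxb2), ih_STC_BM library 1 (Hoxa6) or ih_STC_BM library 2 (Hoxa6, Hoxa9, Hoxb2).

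In ih_BCTC, which has no labelled precursor group and was set against MSC, 23 Hox genes were higher and 2, Hoxb2 and Hoxb4, lower (36.7% of all genes called, 15.9% higher and 20.8% lower). The median log2 fold change was 2.37 (2.35 with bounds) against 0.04 for all genes, and 31 genes did not overlap, beside 70.9% of all. Set against MSC as well, C12 had 20 Hox genes higher and 5 lower (33.1% of all tested genes called, 14.7% higher and 18.4% lower). ih_CTC had 20 higher and 2 lower (34.6% of all tested genes called, 14.7% higher and 19.9% lower), and ih_DCTC 27 and 1 (34.1% of all tested genes called, 16% higher and 18.1% lower). The lower genes were Hoxc8, Hoxc9, Hoxc10, Hoxc11 and Hoxc13 in C12, Hoxa11 and Hoxc13 in ih_CTC, and Hoxb4 in ih_DCTC. The call of Hoxc8 in C12 was lost without C12 library 2 (adjusted p = 0.0793), MSC library 1 (0.062) or MSC library 2 (0.0907), and that of Hoxb4 in ih_DCTC without ih_DCTC library 1 (0.0535) or MSC library 1 (0.0703). These comparisons share the 2 MSC libraries, and their counts lean on MSC library 1: without it, 14 Hox genes were called in ih_BCTC (14 higher, 0 lower), 16 in C12 (12 higher, 4 lower), 14 in ih_CTC (12 higher, 2 lower) and 17 in ih_DCTC (17 higher, 0 lower). Without MSC library 1 the share of all genes called also fell, to 22.8% in ih_BCTC, 20.9% in C12, 20.7% in ih_CTC and 21.8% in ih_DCTC.

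The reference groups differed from each other too, with 20 of 34 Hox genes lower in MDSC than in MSC and 0 higher (46% of all genes called, 25.6% lower). They were 9 of 11 Hoxa genes, 8 of 9 Hoxc genes, Hoxb2, Hoxb6 and Hoxd8. Genes without a count in MDSC could not be called higher there, so the lack of higher calls was also partly fixed by the count filter. The median log2 fold change was -3.46 (-2.95 with bounds) against -0.07 for all genes. Calls for Hoxa2 (adjusted p = 0.25), Hoxa4 (0.479), Hoxa5 (0.24) and Hoxb6 (0.192) were lost without MSC library 2, and those for Hoxa4 and Hoxb6 also without other libraries.

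**Figure D2:**
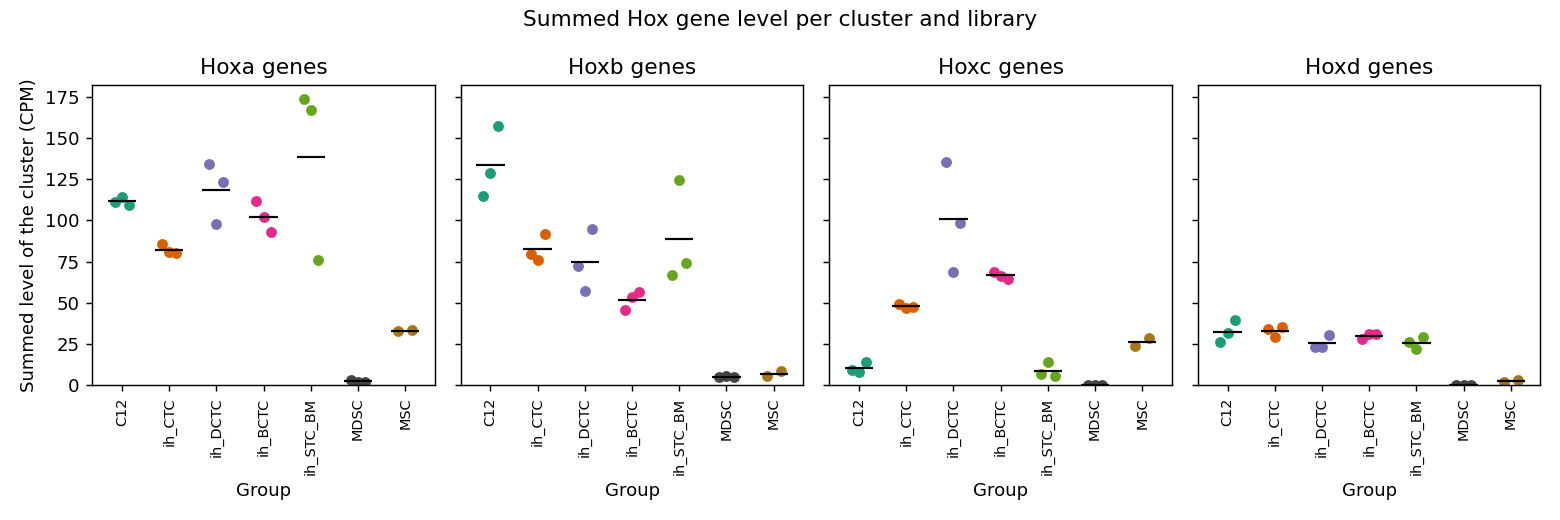
Summed CPM of the genes of each cluster (panels) in each library (points), with the group mean as a bar, on a linear scale from 0. Hoxa and Hoxd sums of every line library lie above those of MDSC and MSC, and the Hoxc sums of C12 and ih_STC_BM, 10.4 and 8.57 CPM on average, lie below that of MSC, 26.1 CPM.

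The Hoxa cluster lies on chromosome 6, with Hoxa2 at chr6:52162511-52164831 and Hoxa13 at chr6:52257694-52260880 on the minus strand, in the coordinates of the deposited annotation, which match GRCm38 for 38 of the 39 genes. Its genes summed to 112 ± 2.25 CPM in C12, 82.3 ± 3.05 in ih_CTC, 118 ± 18.8 in ih_DCTC, 102 ± 9.54 in ih_BCTC and 139 ± 54.7 in ih_STC_BM, with 2.46 ± 0.749 in MDSC and 32.99 ± 0.409 in MSC. From Hoxa2 to Hoxa10 the lines had a broadly shared pattern, and they parted at Hoxa11. By edgeR's F test among the 5 line means, Hoxa5, Hoxa9, Hoxa11 and Hoxa13 were called and the other 7 genes were not.

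Hoxa2, the selector gene of the second branchial arch, had 3.96, 7.57 and 8.15 CPM in C12, 4.9998, 4.73 and 5.05 in ih_CTC, 6.97, 3.39 and 5.53 in ih_DCTC, 3.91, 4.13 and 2.89 in ih_BCTC, and 9.37, 6.89 and 4.25 in ih_STC_BM. In MDSC, Hoxa2 was at 0, 0.120 and 0 CPM, and in MSC at 0.208 and 0.702. No line overlapped a reference group. With 1 count in MDSC, the ratio of C12 to MDSC was 181 (95% counting interval 32.1 to 7165, adjusted p = 4.55e-07). Of the Hoxa2 values, 70% were not whole numbers, and Gm28308 overlaps it on the same strand, so its level is uncertain.

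Hoxa3, needed for the thymus and parathyroid glands, had 13.6, 12.4 and 19.05 CPM in C12, 11.3, 12.2 and 9.33 in ih_CTC, 12.2, 7.75 and 11.8 in ih_DCTC, 8.26, 8.003 and 6.06 in ih_BCTC, and 24.8, 57.3 and 4.99 in ih_STC_BM. In MDSC, Hoxa3 was at 0, 0.120 and 0 CPM, and in MSC at 1.46 and 1.84. The ih_STC_BM libraries spread over more than 10-fold, from the lowest to the highest level of the gene in any line. The 5 lines just missed the threshold of the F test (adjusted p = 0.0501), and 1 pair was called, with ih_BCTC below ih_STC_BM at a log2 fold change of -1.96 (SE 0.56, adjusted p = 0.0211). Values of Hoxa3 are uncertain, since 80% of them were not whole numbers, as an estimate gives where reads are shared out between genes, and its annotated span overlaps Gm28308, Hoxa4, Hoxa5 and Hoxa6 on the same strand. Hoxa4, a gene of the neck vertebrae, ranged from 1.98 CPM in C12 to 7.77 CPM in ih_STC_BM over the 15 line libraries, and was at 0.107 to 0.240 CPM in MDSC and 0.312 and 0.790 in MSC.

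Hoxa5, which shapes the lung and airways, had 8.57, 7.24 and 14.1 CPM in C12, 15.9, 13.4 and 16.01 in ih_CTC, 11.5, 6.996 and 7.26 in ih_DCTC, 7.89, 6.02 and 4.70 in ih_BCTC, and 41.7, 27.2 and 6.75 in ih_STC_BM. In MDSC, Hoxa5 was at 0.442, 0.361 and 0.426 CPM, and in MSC at 1.04 and 3.25. Every line library stood above both reference groups. The 5 lines differed (F = 5.27, adjusted p = 0.0236), with a higher level in ih_STC_BM than in ih_BCTC as the pair that was called. That F test missed the threshold without ih_STC_BM library 1 (adjusted p = 0.118), ih_BCTC library 2 (0.0515) or 3 (0.0569), and the pair without ih_STC_BM library 1 (0.0622) or ih_BCTC library 3 (0.0535). Hoxa6, a gene of the trunk, was low, with 1.43, 0.548 and 1.41 CPM in C12, 1.73, 1.80 and 2.05 in ih_CTC, 0.872, 1.43 and 0.544 in ih_DCTC, 2.03, 1.03 and 1.08 in ih_BCTC, and 1.36, 1.62 and 0.147 in ih_STC_BM. In MDSC, Hoxa6 was at 0.221, 0 and 0 CPM, and in MSC at 0 and 0.176. Only ih_CTC and ih_BCTC reached 1 CPM in every library, but the 5 lines missed the threshold of the F test (adjusted p = 0.763).

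Hoxa7, another trunk gene, was the highest Hoxa gene per exon length in ih_STC_BM and C12, at 13.6 ± 6.28 and 12.2 ± 2.06 CPM per kb of exon. Its levels were 34.7, 41.2 and 29.4 CPM in C12, 23.3, 24.6 and 19.7 in ih_CTC, 23.4, 22.2 and 23.9 in ih_DCTC, 30.9, 20.7 and 25.5 in ih_BCTC, and 59.6, 25.4 and 32.3 in ih_STC_BM. In MDSC, Hoxa7 was at 0.773, 0.361 and 0.639 CPM, and in MSC at 3.44 and 5.18. All 15 line libraries were above all MSC libraries, which were above all MDSC libraries. Its log2 fold change was 5.85 (SE 0.40, adjusted p = 2.10e-09) for C12 over MDSC and 3.17 (SE 0.39, adjusted p = 7.15e-06) for ih_STC_BM over MSC. Of the Hoxa7 values, 75% were not whole, so its level too is uncertain, although the annotation gives it no overlapping gene on its own strand.

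Hoxa9, which supports blood progenitors and is a driver of myeloid leukaemia, had 8.90, 5.81 and 9.17 CPM in C12, 12.5, 9.63 and 13.4 in ih_CTC, 24.9, 14.8 and 20.7 in ih_DCTC, 17.4, 17.5 and 16.6 in ih_BCTC, and 10.5, 24.6 and 12.02 in ih_STC_BM. In MDSC, Hoxa9 was at 1.33, 0.601 and 0.533 CPM, and in MSC at 6.56 and 6.15. MDSC libraries were lowest, but this was among the higher Hox genes in them. Over MDSC, the log2 fold change was 3.26 (SE 0.42, adjusted p = 4.06e-06) in C12 and 4.59 (SE 0.43, adjusted p = 8.78e-08) in ih_DCTC. Among lines, the C12 libraries were the lowest, without overlap (F = 4.16, adjusted p = 0.0473 over the 5 lines). That F test is at the margin: its adjusted p was up to 0.153 when a library was left out (without C12 library 2), and it missed the threshold in most such fits. It also missed the threshold with RLE scaling (adjusted p = 0.0528), with upper quartile scaling (0.0589) and without the count filter (0.0935). Hoxa10, which patterns the lumbar region and the uterus, had 13.2, 12.2 and 8.15 CPM in C12, 7.12, 5.88 and 7.79 in ih_CTC, 17.3, 13.4 and 16.6 in ih_DCTC, 12.2, 14.9 and 11.3 in ih_BCTC, and 9.37, 7.91 and 4.25 in ih_STC_BM. In MDSC, Hoxa10 was at 0.331, 0 and 0.213 CPM, and in MSC at 11.98 and 9.13. Here MSC overlapped the lines, and the log2 fold change over MSC was -0.55 (SE 0.41, adjusted p = 0.337) in ih_STC_BM and 0.28 (SE 0.42, adjusted p = 0.643) in ih_BCTC. Over MDSC it was 5.82 (SE 0.53, adjusted p = 6.52e-08) in C12.

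Hoxa11, which shapes the forearm and the uterus, separated the lines most sharply in this cluster. It had 19.01, 19.3 and 12.1 CPM in C12, 0, 0 and 0.0856 in ih_CTC, 26.1, 19.4 and 23.3 in ih_DCTC, 22.01, 22.98 and 18.5 in ih_BCTC, and 5.18, 1.72 and 6.16 in ih_STC_BM. In MDSC, Hoxa11 had no count, and in MSC it was at 5.83 and 4.74 CPM. The gene was thus at 1 count over the 3 ih_CTC libraries and at 504, 725, 765 and 101 counts over those of C12, ih_DCTC, ih_BCTC and ih_STC_BM. Against MDSC, which had no count, C12 was at least 145-fold higher (adjusted p = 4.68e-08) and ih_DCTC at least 199.9-fold higher (adjusted p = 2.52e-08). The ratio of C12 to ih_CTC was 559 (95% counting interval 99.8 to 22107, adjusted p = 1.86e-06), and C12 was also above ih_STC_BM, with a log2 fold change of 1.96 (SE 0.42, adjusted p = 0.00997). ih_DCTC and ih_BCTC had a log2 difference of 0.12, with a 95% interval of -0.73 to 0.96. Of the Hoxa11 values, 30% were not whole, and Hoxa11os runs on the other strand over the same stretch.

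Hoxa13, a gene of the hand, foot and hindgut, was detected in no group by the rule: it had 0 to 1.27 CPM in the libraries of C12, ih_DCTC and ih_BCTC, 0.521 and 0.176 CPM in MSC, and no count in ih_CTC, ih_STC_BM or MDSC. Over 3 libraries, no count allows up to 0.0874 CPM in ih_CTC, taking 3 counts as the limit. C12 was at least 6.33-fold higher (adjusted p = 0.0103) than MDSC, a call that was lost in the fit that adds the intron share.

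The contrast between Hoxa10, on in every line, and its neighbour Hoxa11, off in ih_CTC, can be set beside the bases before the start of each gene. The 250 bases upstream of the RefSeq starts (GRCm38.p6) are shown 5′ to 3′ for the outer of 2 Hoxa10 starts (chr6:52240855-52241104, minus strand) and Hoxa11 (chr6:52245811-52246060, minus strand), with each CpG, the pair of bases that DNA methylation acts on, in capitals.
Hoxa10: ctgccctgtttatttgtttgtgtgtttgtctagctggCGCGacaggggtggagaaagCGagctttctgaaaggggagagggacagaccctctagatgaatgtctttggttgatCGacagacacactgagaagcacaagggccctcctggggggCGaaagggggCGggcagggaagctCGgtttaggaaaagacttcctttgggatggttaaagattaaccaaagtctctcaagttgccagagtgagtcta
Hoxa11: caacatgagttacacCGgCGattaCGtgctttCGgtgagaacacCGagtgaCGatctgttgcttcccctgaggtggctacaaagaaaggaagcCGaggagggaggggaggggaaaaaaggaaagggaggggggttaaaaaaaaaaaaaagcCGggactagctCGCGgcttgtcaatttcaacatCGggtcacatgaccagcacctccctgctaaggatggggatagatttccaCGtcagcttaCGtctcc
They hold 7 and 13 CpGs, while the same length before the other Hoxa10 start (chr6:52234940-52235189, minus strand) holds 20, so the order of the genes depends on the start taken. These counts stand against a median of 6 over 32851 RefSeq promoters of the same length and 12.5 over the 24 promoters found for 22 of the Hox genes. Methylation was not measured in these samples, so the count is a description of the sequence.

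The Hoxb cluster lies on chromosome 11, from Hoxb13 at chr11:96194316-96197447 to Hoxb1 at chr11:96365752-96368256 on the plus strand. Both reference groups were far below the lines in this cluster: its genes summed to 134 ± 21.5 CPM in C12, 82.4 ± 8.08 in ih_CTC, 74.8 ± 18.7 in ih_DCTC, 51.9 ± 5.82 in ih_BCTC and 88.5 ± 31.2 in ih_STC_BM, with 5.07 ± 0.609 in MDSC and 6.98 ± 1.92 in MSC. C12 made 46.4% of its summed Hox level from Hoxb genes and ih_BCTC 20.7%. In MDSC and MSC most of the Hoxb level came from Hoxb3 and Hoxb4, and from Hoxb5 to Hoxb13 no library of either reached 1 CPM.

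Hoxb1, a hindbrain gene, had 3 counts in the 20 libraries together. Hoxb2, which specifies facial motor neurons, had 6.16, 4.82 and 3.76 CPM in C12, 4.42, 4.65 and 3.77 in ih_CTC, 0.249, 0.451 and 0.363 in ih_DCTC, 0.150, 0.0861 and 0.181 in ih_BCTC, and 1.48, 3.14 and 2.20 in ih_STC_BM. In MDSC, Hoxb2 was at 0, 0 and 0.213 CPM, and in MSC at 0.625 and 0.702. C12, ih_CTC and ih_STC_BM libraries were all above those of ih_DCTC and ih_BCTC, which stayed under 1 CPM, and the 5 lines differed (F = 26, adjusted p = 2.24e-05). Its log2 fold change was 3.72 (SE 0.57, adjusted p = 0.000282) for C12 over ih_DCTC and 4.83 (SE 0.62, adjusted p = 0.00012) for ih_CTC over ih_BCTC. ih_BCTC was below MSC, at -2.16 (SE 0.69, adjusted p = 0.0205), a call that was lost without MSC library 1 (adjusted p = 0.0614) or 2 (0.0856) or ih_BCTC library 1 (0.051) or 2 (0.0701).

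Hoxb3, active in the hindbrain and in blood progenitors, had 6.92, 4.39 and 15.4 CPM in C12, 10.6, 12.2 and 10.4 in ih_CTC, 5.73, 10.6 and 9.43 in ih_DCTC, 7.59, 11.2 and 7.23 in ih_BCTC, and 3.08, 9.83 and 4.11 in ih_STC_BM. In MDSC, Hoxb3 was at 1.77, 2.28 and 1.92 CPM, and in MSC at 0.417 and 2.81. It was the gene with the smallest called rise over MDSC in C12, with a log2 fold change of 2.17 (SE 0.58, adjusted p = 0.00398), and MDSC overlapped neither C12, ih_CTC nor ih_DCTC. With the MDSC libraries, which lie close to counting noise of each other, summed to 1, its adjusted p was 0.084 in C12, 0.0604 in ih_CTC and 0.0956 in ih_DCTC. Hoxb4, which expands blood stem cells when overexpressed, was the only Hox gene called lower than in MDSC in C12, ih_CTC or ih_DCTC, and that call was in ih_DCTC. Hoxb4 had 1.65, 2.08 and 2.67 CPM in C12, 3.46, 4.49 and 2.997 in ih_CTC, 0.498, 1.204 and 1.18 in ih_DCTC, 1.43, 0.774 and 0.542 in ih_BCTC, and 2.47, 4.66 and 0.733 in ih_STC_BM. In MDSC, Hoxb4 was at 2.87, 3.49 and 2.34 CPM, and in MSC at 4.37 and 3.69. The MDSC and MSC libraries lay within the range of the lines. The log2 fold change over MDSC was -0.43 (SE 0.53, adjusted p = 0.492) in C12, with a 95% interval of -1.55 to 0.68, and -1.56 (SE 0.55, adjusted p = 0.0225) in ih_DCTC. Against MSC, ih_BCTC was lower at -2.11 (SE 0.59, adjusted p = 0.00939), or adjusted p = 0.0556 without MSC library 1. MDSC had 9.64% to 10.4% of reads in introns and ih_DCTC 2.33% to 5.99%, and Hoxb4 had an adjusted p of 0.523 with that share in the fit.

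Hoxb5, which places the shoulder and patterns the gut, had 2.09, 3.51 and 12.2 CPM in C12, 5.38, 5.06 and 4.79 in ih_CTC, 1.62, 3.99 and 4.44 in ih_DCTC, 4.21, 2.93 and 2.89 in ih_BCTC, and 1.73, 5.68 and 1.61 in ih_STC_BM. In MDSC, Hoxb5 was at 0.110, 0 and 0 CPM, and in MSC it had no count. All line libraries were above 1.5 CPM, with C12 library 3 the highest, and the reference groups had 1 count in all. ih_STC_BM was at least 22.9-fold higher (adjusted p = 0.000615) than MSC, and ih_BCTC at least 23.7-fold higher (adjusted p = 0.000398). Hoxb6, a trunk gene, had 8.68, 9.54 and 13.9 CPM in C12, 9.33, 8.08 and 5.99 in ih_CTC, 6.47, 4.74 and 3.63 in ih_DCTC, 4.58, 5.42 and 2.80 in ih_BCTC, and 5.67, 9.12 and 3.81 in ih_STC_BM. In MDSC, Hoxb6 had no count, and in MSC it was at 0.104 and 0.263 CPM. C12 was at least 98.8-fold higher (adjusted p = 6.26e-08) than MDSC, and the 5 lines missed the threshold of the F test (adjusted p = 0.0821).

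Hoxb7, a trunk gene active in several carcinomas, had 8.79, 8.77 and 9.09 CPM in C12, 9.42, 9.71 and 7.45 in ih_CTC, 4.73, 1.81 and 8.07 in ih_DCTC, 2.18, 1.72 and 1.72 in ih_BCTC, and 13.4, 35.7 and 15.3 in ih_STC_BM. In MDSC, Hoxb7 had no count, and in MSC it was at 0 and 0.263 CPM. Levels were highest in ih_STC_BM and lowest in ih_BCTC, with no overlap between them, and the 5 lines differed (F = 11.3, adjusted p = 0.00206). Per exon length ih_STC_BM had 13.9 ± 7.999 CPM per kb. Against MSC, with 3 counts, the ratio of ih_STC_BM was 159 (95% counting interval 54.3 to 775, adjusted p = 1.88e-05). Against MDSC, C12 was at least 79.5-fold higher (adjusted p = 1.72e-06). Hoxb8, which keeps myeloid progenitors dividing when expressed artificially, had 14.1, 16.7 and 18.2 CPM in C12, 6.83, 5.79 and 6.85 in ih_CTC, 6.47, 3.99 and 10.6 in ih_DCTC, 2.33, 3.70 and 4.43 in ih_BCTC, and 14.3, 18.7 and 9.68 in ih_STC_BM. In MDSC, Hoxb8 had no count, and in MSC it was at 0 and 0.263 CPM. C12 and ih_STC_BM had the highest means and ih_BCTC the lowest, and the 5 lines differed (F = 7.99, adjusted p = 0.00734). C12 was at least 147-fold higher (adjusted p = 1.02e-07) than MDSC, and its log2 fold change over ih_BCTC was 2.23 (SE 0.46, adjusted p = 0.00367).

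Hoxb9, a gene of the lower trunk, was the highest Hox gene per exon length in C12, at 23.5 ± 3.82 CPM per kb, in ih_DCTC, at 12.3 ± 3.92, and in ih_CTC, at 10.2 ± 4.78. Its levels were 51.9, 58.5 and 71.3 CPM in C12, 19.999, 18.1 and 40.3 in ih_CTC, 27.8, 24.3 and 43.3 in ih_DCTC, 19.1, 18.8 and 30.4 in ih_BCTC, and 13.8, 28.5 and 31.1 in ih_STC_BM. In MDSC, Hoxb9 was at 0, 0 and 0.107 CPM, and in MSC at 0.104 and 0.351. Every line library was above 13 CPM and every reference library under 1 CPM. Against MDSC, with 1 count, the ratio was 1654 (95% counting interval 297 to 65374, adjusted p = 2.87e-09) in C12. Over MSC, the log2 fold change was 6.63 (SE 0.68, adjusted p = 1.03e-06) in ih_STC_BM and 6.52 (SE 0.68, adjusted p = 9.84e-07) in ih_BCTC. The 5 lines differed in the F test (F = 4.83, adjusted p = 0.0307), with C12 the highest, but not when C12 library 1, 2 or 3, ih_BCTC library 1 or 2, or ih_CTC library 1 was left out (adjusted p of 0.0524 to 0.098). It was also lost without the line libraries with under 3% of reads in introns, a fit that keeps only C12 library 3 and ih_STC_BM library 2 of those lines.

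Hoxb13, which acts in the tail bud and the prostate, lies apart from the other Hoxb genes at the end of the cluster and had no count in any MDSC or MSC library. It had 14.7, 20.7 and 10.6 CPM in C12, 10.4, 7.75 and 8.82 in ih_CTC, 18.8, 6.24 and 13.6 in ih_DCTC, 3.83, 8.95 and 6.42 in ih_BCTC, and 10.97, 9.02 and 5.87 in ih_STC_BM. All line libraries were above 3.8 CPM. C12 was at least 132-fold higher (adjusted p = 2.04e-07) than MDSC, ih_DCTC at least 106-fold higher (adjusted p = 2.63e-07), ih_CTC at least 79.5-fold higher (adjusted p = 5.26e-07) and, against MSC, ih_STC_BM at least 61.5-fold higher (adjusted p = 9.35e-06) and ih_BCTC at least 43.9-fold higher (adjusted p = 1.29e-05). The 5 lines missed the threshold of the F test (adjusted p = 0.157).

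Hoxb8 is one of the genes on in every line and at or near 0 in both reference groups, with 0 counts in MDSC and 3 in MSC, and the deposited annotation gives it no overlapping gene. The 250 bases before its RefSeq start (chr11:96281655-96281904, plus strand, GRCm38.p6) hold 12 CpGs, in capitals.
Hoxb8: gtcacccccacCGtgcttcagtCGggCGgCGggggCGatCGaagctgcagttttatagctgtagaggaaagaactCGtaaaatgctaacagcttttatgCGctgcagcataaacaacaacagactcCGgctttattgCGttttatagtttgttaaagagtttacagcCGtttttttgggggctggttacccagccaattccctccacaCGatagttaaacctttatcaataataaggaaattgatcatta
The letters TATAAA, the core of a TATA box, occur 2 times in it, both on the opposite strand, so they read TTTATA in the bases shown. Counted on both strands, that motif is in 12.4% of the 32851 RefSeq promoters of this length and in 4 of the 24 Hox promoters found. Whether it acts as a TATA box here was not tested.

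**Figure D3:**
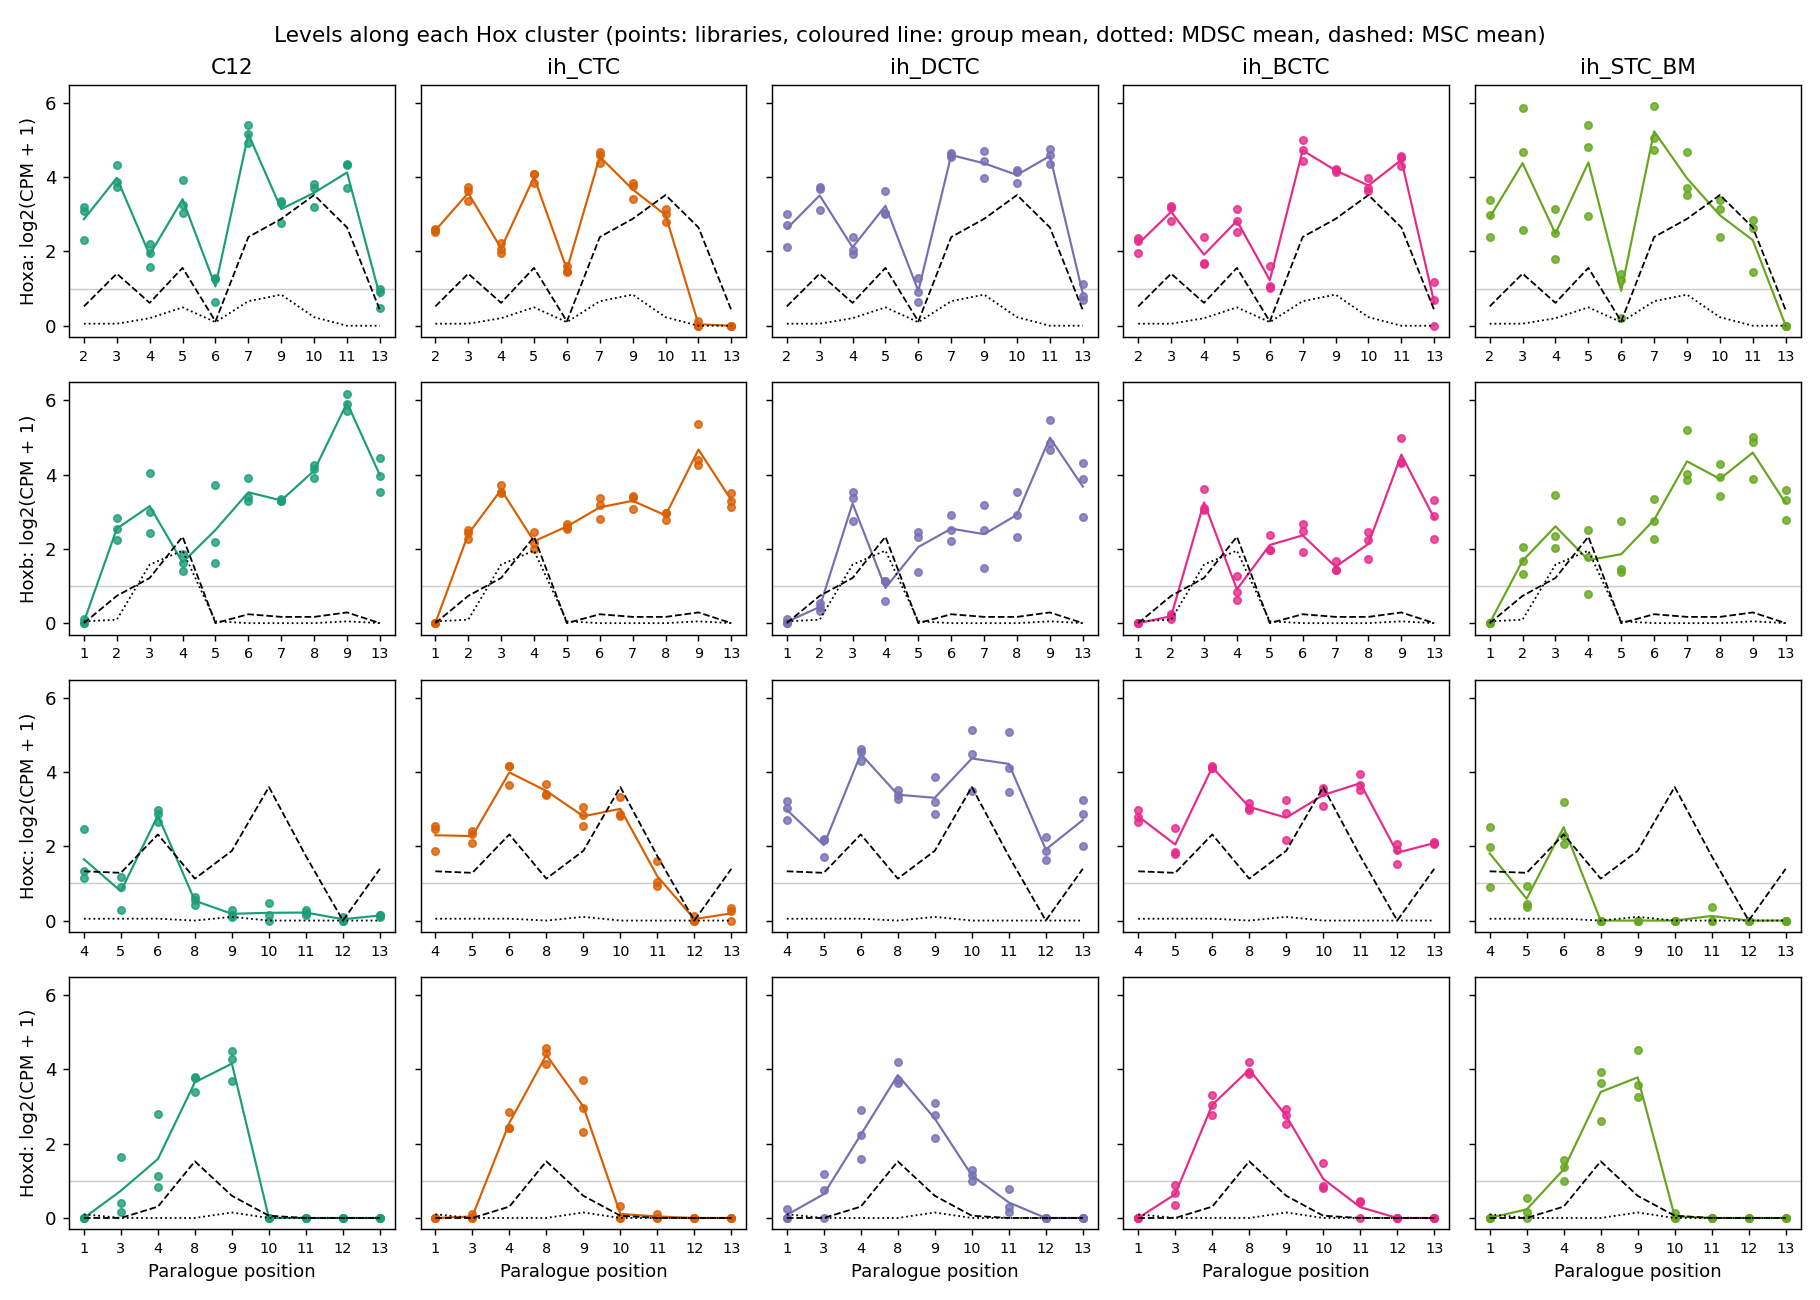
Level of 38 of the 39 Hox genes along each cluster (rows of panels) in each line (columns of panels) as log2(CPM + 1) against paralogue position, with points for libraries, a coloured line for the group mean, a dotted line for the MDSC mean and a dashed line for the MSC mean. The Hoxb rows stand above both reference curves at positions 5 to 13 in all lines, and the Hoxc rows separate C12 and ih_STC_BM, near 0 beyond position 6, from the other lines.

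The Hoxc cluster lies on chromosome 15, with Hoxc13 at chr15:102921103-102928814 and Hoxc4 at chr15:103018934-103036852 on the plus strand. It had the largest share of genes that differed among the lines. Summed levels were 10.4 ± 3.04 CPM in C12 and 8.57 ± 4.65 in ih_STC_BM, against 48.01 ± 1.24 in ih_CTC, 101 ± 33.6 in ih_DCTC and 66.6 ± 2.25 in ih_BCTC, with 0.181 ± 0.168 in MDSC and 26.1 ± 3.60 in MSC. Of its 9 genes, 8 differed among the 5 lines, Hoxc4 being the exception, where 33.2% of all tested genes did. Detected genes were Hoxc4 and Hoxc6 in C12, Hoxc6 alone in ih_STC_BM, those from Hoxc4 to Hoxc10 in ih_CTC, and all 9 in ih_DCTC and ih_BCTC. Hoxc5 overlaps Hoxc6, Hoxc8, Hoxc9 and Hoxc10 on the same strand in the annotation, so reads within that stretch could be shared out, although every value of these genes was a whole number.

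Hoxc4, which acts in the neck and in B cells, had 1.54, 1.21 and 4.55 CPM in C12, 4.81, 2.69 and 4.54 in ih_CTC, 7.10, 5.57 and 8.34 in ih_DCTC, 5.26, 5.94 and 6.87 in ih_BCTC, and 2.96, 4.76 and 0.880 in ih_STC_BM. In MDSC, Hoxc4 was at 0, 0 and 0.107 CPM, and in MSC at 1.15 and 1.93. All ih_DCTC and ih_BCTC libraries were above those of the other lines, but the F test among the 5 lines missed the threshold (adjusted p = 0.139). Hoxc5, its neighbour at the neck and shoulder level, had 0.220, 0.877 and 1.25 CPM in C12, 4.33, 3.999 and 3.25 in ih_CTC, 3.61, 3.54 and 2.27 in ih_DCTC, 4.58, 2.50 and 2.62 in ih_BCTC, and 0.370, 0.912 and 0.293 in ih_STC_BM. In MDSC, Hoxc5 was at 0.110, 0 and 0 CPM, and in MSC at 1.56 and 1.32. C12 and ih_STC_BM libraries were all below those of the other lines, and the 5 lines differed (F = 8.8, adjusted p = 0.00396). That F test missed the threshold without the line libraries with under 3% of reads in introns, a fit that keeps only C12 library 3 and ih_STC_BM library 2 of those lines. Hoxc6, a gene of the upper trunk and forelimb level, had 6.37, 5.26 and 6.82 CPM in C12, 17.02, 16.8 and 11.5 in ih_CTC, 23.8, 18.5 and 22.2 in ih_DCTC, 16.1, 16.3 and 16.8 in ih_BCTC, and 3.21, 8.21 and 3.81 in ih_STC_BM. In MDSC, Hoxc6 was at 0.110, 0 and 0 CPM, and in MSC at 2.92 and 5.36. It was the Hoxc gene detected in all 5 lines, and C12 and ih_STC_BM lay below each other line without overlap (F = 11.3, adjusted p = 0.00141). For C12 against ih_CTC the adjusted p was 0.0263, and 0.137 in the fit that adds the intron share. Its log2 fold change was 1.98 (SE 0.45, adjusted p = 0.00203) for ih_BCTC over MSC and 0.30 (SE 0.43, adjusted p = 0.638) for ih_STC_BM over MSC.

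Beyond Hoxc6, C12 and ih_STC_BM were called below ih_DCTC and ih_BCTC in every gene, and below ih_CTC from Hoxc8 to Hoxc11. From Hoxc11 on, ih_CTC was called below ih_DCTC and ih_BCTC too. Hoxc8, which acts in spinal motor neurons and the ribs, had 0.550, 0.329 and 0.470 CPM in C12, 9.52, 11.8 and 9.50 in ih_CTC, 10.5, 9.33 and 8.71 in ih_DCTC, 7.96, 7.23 and 6.87 in ih_BCTC, and 0 in every ih_STC_BM library. In MDSC, Hoxc8 had no count, and in MSC it was at 1.15 and 1.23 CPM. The 3 lines ih_CTC, ih_DCTC and ih_BCTC were above MSC, C12 was below it and ih_STC_BM had no count (F = 94.9, adjusted p = 4.05e-07). ih_CTC was at least 92.2-fold higher (adjusted p = 1.31e-08) than MDSC, and ih_STC_BM at least 9.84-fold lower (adjusted p = 1.38e-05) than MSC. Hoxc9, which sets the thoracic level of the spinal cord, had 0.220, 0.110 and 0.0784 CPM in C12, 6.15, 4.82 and 7.28 in ih_CTC, 13.7, 6.24 and 8.07 in ih_DCTC, 8.41, 6.45 and 3.53 in ih_BCTC, and 0 in every ih_STC_BM library. In MDSC, Hoxc9 was at 0.110, 0 and 0.107 CPM, and in MSC at 2.81 and 2.55. C12 had 4 counts over its libraries and ih_STC_BM none. ih_STC_BM was at least 22.05-fold lower (adjusted p = 1.58e-05) than MSC, and the ratio of ih_CTC to MDSC was 81.1 (95% counting interval 22.2 to 674, adjusted p = 1.28e-06).

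Hoxc10, a gene of the lumbar spinal cord and the hindlimb, had 0, 0.110 and 0.392 CPM in C12, 6.35, 6.04 and 9.08 in ih_CTC, 33.99, 10.2 and 21.2 in ih_DCTC, 10.97, 10.1 and 7.50 in ih_BCTC, and 0 in every ih_STC_BM library. In MDSC, Hoxc10 had no count, and in MSC it was at 10.6 and 11.6 CPM. Per exon length it was the highest Hoxc gene of ih_DCTC, at 11.4 ± 6.23 CPM per kb, and the highest Hox gene of MSC, at 5.82 ± 0.359. MSC libraries lay within the range of ih_DCTC, overlapped ih_BCTC and were above ih_CTC, and far above C12 and ih_STC_BM. ih_STC_BM was at least 92.1-fold lower (adjusted p = 1.07e-05) than MSC, while ih_BCTC had a log2 fold change over MSC of -0.22 (SE 0.55, adjusted p = 0.794). ih_DCTC was at least 177-fold higher (adjusted p = 7.66e-07) than MDSC, where the gene had no count. ih_DCTC library 1 was the highest and library 2 the lowest of that line, with 2.33% and 5.99% of reads in introns, and the part of the intron share in that spread was not tested.

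Hoxc11, another hindlimb-level gene, had 0.110, 0.219 and 0.157 CPM in C12, 1.06, 0.898 and 2.05 in ih_CTC, 32.9, 10.01 and 16.3 in ih_DCTC, 10.4, 11.4 and 14.4 in ih_BCTC, and 0, 0 and 0.293 in ih_STC_BM. In MDSC, Hoxc11 had no count, and in MSC it was at 1.98 and 2.72 CPM. ih_DCTC and ih_BCTC libraries were all above 9 CPM and did not overlap any other group. Its log2 fold change was 2.35 (SE 0.64, adjusted p = 0.00906) for ih_BCTC over MSC, with an adjusted p of 0.0926 without MSC library 1. ih_CTC lay below ih_DCTC, at -3.87 (SE 0.59, adjusted p = 0.000822). Hoxc12, at the tail end of the cluster, was on in only these lines: it had 0, 0 and 0.0784 CPM in C12, 0, 0 and 0.0856 in ih_CTC, 3.74, 2.11 and 2.63 in ih_DCTC, 1.88, 3.18 and 2.71 in ih_BCTC, and 0 in every ih_STC_BM library. In MDSC and MSC, Hoxc12 had no count. C12 and ih_CTC had 1 count each. ih_BCTC was at least 17.9-fold higher (adjusted p = 0.000414) than MSC. Hoxc13, required for hair and nails, had 0.110, 0.110 and 0.0784 CPM in C12, 0.192, 0 and 0.257 in ih_CTC, 6.35, 3.01 and 8.44 in ih_DCTC, 3.30, 3.27 and 3.16 in ih_BCTC, and 0 in every ih_STC_BM library. In MDSC, Hoxc13 had no count, and in MSC it was at 1.35 and 1.93 CPM. ih_DCTC and ih_BCTC were above MSC in every library, C12, ih_CTC and ih_STC_BM below it. The log2 fold change of ih_BCTC over MSC, 0.97 (SE 0.64, adjusted p = 0.264), did not pass the test, and ih_STC_BM was at least 13.8-fold lower (adjusted p = 0.000392) than MSC.

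The Hoxd cluster lies on chromosome 2, with Hoxd13 at chr2:74668310-74671599 and Hoxd1 at chr2:74762980-74765142 on the plus strand, and it was active over a narrow stretch. Its genes summed to 32.5 ± 6.74 CPM in C12, 32.8 ± 3.23 in ih_CTC, 25.6 ± 4.24 in ih_DCTC, 30.1 ± 1.73 in ih_BCTC and 25.8 ± 3.68 in ih_STC_BM, against 0.183 ± 0.118 in MDSC and 2.71 ± 0.887 in MSC. Hoxd8 and Hoxd9 gave most of it in every line.

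Hoxd8, a trunk gene, had 12.7, 9.43 and 12.9 CPM in C12, 22.7, 20.9 and 16.7 in ih_CTC, 12.1, 11.4 and 17.3 in ih_DCTC, 13.6, 14.3 and 17.3 in ih_BCTC, and 14.3, 11.4 and 5.13 in ih_STC_BM. In MDSC, Hoxd8 had no count, and in MSC it was at 1.67 and 2.11 CPM. Every line library was above every MSC library, and MDSC had no count. C12 was at least 106-fold higher (adjusted p = 1.31e-08) than MDSC, ih_CTC at least 178-fold higher (adjusted p = 4.52e-09) and ih_DCTC at least 121-fold higher (adjusted p = 9.40e-09). The log2 fold change over MSC was 2.44 (SE 0.43, adjusted p = 0.000485) in ih_STC_BM and 2.98 (SE 0.44, adjusted p = 7.26e-05) in ih_BCTC, and the lines missed the threshold of the F test (adjusted p = 0.168).

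Hoxd9, which acts in the lower trunk and limb, had 11.9, 21.5 and 18.6 CPM in C12, 6.83, 3.999 and 12.1 in ih_CTC, 7.60, 3.46 and 5.80 in ih_DCTC, 5.86, 4.82 and 6.60 in ih_BCTC, and 10.97, 8.51 and 21.997 in ih_STC_BM. In MDSC, Hoxd9 was at 0, 0.120 and 0.213 CPM, and in MSC at 0.417 and 0.615. Per exon length it reached 8.11 ± 2.31 CPM per kb in C12, the highest mean of a Hoxd gene. The ratio of C12 to MDSC, with 3 counts, was 156 (95% counting interval 53.02 to 758, adjusted p = 1.90e-07), and the log2 fold change of ih_STC_BM over MSC was 4.70 (SE 0.69, adjusted p = 5.24e-05). The 5 lines differed (F = 5.19, adjusted p = 0.0248), with C12 above ih_DCTC and ih_BCTC, but not without C12 library 2 (adjusted p = 0.0642) or ih_BCTC library 2 (0.0512). C12 over ih_DCTC was also lost without C12 library 2 (0.101) or ih_DCTC library 2 (0.125) or 3 (0.0826). C12 over ih_BCTC was lost without C12 library 2 (0.076) or any 1 of the ih_BCTC libraries (up to 0.09).

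Hoxd4, a gene of the neck vertebrae, had 1.21, 0.767 and 5.96 CPM in C12, 4.33, 4.33 and 6.25 in ih_CTC, 1.99, 6.47 and 3.72 in ih_DCTC, 7.29, 8.86 and 5.88 in ih_BCTC, and 0.987, 1.93 and 1.61 in ih_STC_BM. In MDSC, Hoxd4 had no count, and in MSC it was at 0 and 0.527 CPM. All line libraries were above both reference groups, C12 library 3 stood apart from the other C12 libraries, and the lines missed the threshold of the F test (adjusted p = 0.142). Of its values, 80% were not whole, and Hoxd3 and Gm28230 overlap it on the same strand, so its level is uncertain. Hoxd3, which acts in the atlas vertebra, had 0 to 2.12 CPM over the lines, with the highest in C12 library 3, and no count in MDSC or MSC, and 45% of its values were not whole. Hoxd1, a gene of pain-sensing neurons, had 4 counts in all libraries together, 2 of them in MDSC.

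Hoxd10, which acts in the lumbar spinal cord, had 1.25, 0.978 and 1.45 CPM in ih_DCTC and 0.751, 1.81 and 0.814 in ih_BCTC, and 0 to 0.257 CPM in every other library. ih_DCTC was at least 10.8-fold higher (adjusted p = 0.00111) than MDSC. Hoxd11, which acts in the forearm with Hoxa11, had 12 counts over ih_DCTC, 8 over ih_BCTC, 1 in ih_CTC and 0 elsewhere. Hoxd12 and Hoxd13, genes of the digits, had no count in any of the 20 libraries, which allows up to 0.0968 CPM over the 3 C12 libraries. Intervals and limits of this kind cover counting error only.

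Hoxd8, like Hoxb13, was detected in every line and called in no pair of lines. The 250 bases before its RefSeq start (chr2:74704365-74704614, plus strand, GRCm38.p6), with 6 CpGs in capitals, read as follows.
Hoxd8: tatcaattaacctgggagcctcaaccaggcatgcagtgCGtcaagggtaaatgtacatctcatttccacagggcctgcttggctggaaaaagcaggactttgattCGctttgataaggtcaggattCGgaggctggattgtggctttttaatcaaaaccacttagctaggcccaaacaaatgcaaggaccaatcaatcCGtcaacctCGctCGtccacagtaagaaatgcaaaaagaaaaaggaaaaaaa
The letters CCAAT, the box bound by NF-Y, occur in it on 1 of the strands, as in 33.8% of all RefSeq promoters of this length and 14 of the 24 Hox promoters. A Pbx and Hox site written TGATTNAT occurs in 2 of the 24 and in 2.82% of all, and the homeodomain core TAATTA in 2 and in 4.84%, and neither is in the 4 windows shown here.

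Paralogues, the genes of 1 position in different clusters, were on together at some positions and not at others. At position 7 both genes were detected in all 5 lines, and at positions 8 and 9 all members were detected in ih_CTC, ih_DCTC and ih_BCTC. At position 9, Hoxa9, Hoxb9 and Hoxd9 were detected in all 5 lines and Hoxc9 in ih_CTC, ih_DCTC and ih_BCTC, while MSC had Hoxa9 and Hoxc9. At position 13, Hoxb13 was detected in every line, Hoxc13 in ih_DCTC, ih_BCTC and MSC, and Hoxa13 and Hoxd13 in no group. At position 11, Hoxa11 was detected in C12, ih_DCTC, ih_BCTC, ih_STC_BM and MSC, and Hoxc11 in ih_DCTC, ih_BCTC and MSC, and ih_CTC had no detected gene of that position. The detected gene of highest number of each cluster in C12 was Hoxa11, Hoxb13, Hoxc6 and Hoxd9, and in ih_CTC it was Hoxa10, Hoxb13, Hoxc10 and Hoxd9.

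Hox genes differed among the 5 lines, though not between every pair of them: ih_DCTC and ih_BCTC had no call. Over the 5 line means, 19 of the 34 tested genes differed by edgeR's F test (adjusted p under 0.05), beside 33.2% of all tested genes: 4 of 11 in Hoxa, 5 of 9 in Hoxb, 8 of 9 in Hoxc and 2 of 5 in Hoxd. Leaving out each library in turn gave 14 to 22 genes. Over the 10 pairs of lines there were 92 calls in 340 tests. The share of all tested genes called is given below for each pair. It was not pooled over the 10 pairs, so the pooled count only describes the Hox genes. Hoxc11 was called in 8 pairs, Hoxa11 and Hoxc8 in 7, and Hoxb2, Hoxc5, Hoxc6, Hoxc9, Hoxc10, Hoxc12, Hoxc13 and Hoxd10 in 6 each. Other genes, such as Hoxa2, Hoxa7, Hoxa10, Hoxb3, Hoxb5, Hoxb13, Hoxc4 and Hoxd8, were called in no pair, which does not show that their levels were equal.

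C12 and ih_STC_BM, which carry a macrophage and a mesenchymal label, differed in 2 Hox genes, Hoxa11 and Hoxc8, both higher in C12 (7.53% of all tested genes called, 4.46% higher and 3.07% lower). C12 was at least 3.74-fold higher (adjusted p = 0.00276) in Hoxc8, and the pair had 5 calls without ih_STC_BM library 3. The Hoxc8 call was lost without the line libraries with under 3% of reads in introns. That fit keeps only C12 library 3 and ih_STC_BM library 2 of this pair, so it is a weak check. ih_BCTC and ih_STC_BM had the most calls of any pair: in ih_BCTC 12 Hox genes were higher, 8 of them in Hoxc, and Hoxa3, Hoxa5, Hoxb2, Hoxb7 and Hoxb8 lower (20.4% of all tested genes called, 9.02% higher and 11.3% lower). C12 against ih_BCTC had 6 genes higher in C12, all in Hoxb but Hoxd9, and 10 lower (20% of all tested genes called, 11.5% higher and 8.5% lower). ih_DCTC had 11 higher than ih_STC_BM, and Hoxb2 and Hoxb7 lower (10.9% of all tested genes called, 6.78% higher and 4.16% lower). C12 had Hoxb2 and Hoxd9 higher and 10 genes lower than ih_DCTC (12.2% of all tested genes called, 5.69% higher and 6.52% lower).

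The macrophage-labelled lines C12 and ih_CTC differed in 9 Hox genes, with Hoxa11, Hoxa13 and Hoxb9 higher in C12 and 6 genes from Hoxc5 to Hoxc11 lower (16.5% of all tested genes called, 9.6% higher and 6.9% lower). That count fell to 4 without C12 library 1, to 5 without C12 library 2 and to 6 without ih_CTC library 1 or 2. ih_CTC had Hoxb2 and Hoxb4 higher and 6 genes lower than ih_DCTC (8.21% of all tested genes called, 2.68% higher and 5.53% lower), or 5 calls without ih_CTC library 1 or 2 or ih_DCTC library 1 or 3. Against ih_BCTC it had Hoxb2, Hoxb4 and Hoxb7 higher and 5 genes lower (6.29% of all tested genes called, 3.38% higher and 2.91% lower), or 5 calls without ih_CTC library 1 or 2 or ih_BCTC library 2 or 3. Against ih_STC_BM it had 6 Hoxc genes higher and Hoxa11 lower (18.2% of all tested genes called, 7.45% higher and 10.8% lower).

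ih_DCTC and ih_BCTC, labelled dendritic and oligodendrocyte, had no Hox gene called between them, with 0 of 34 by edgeR and 0 by DESeq2, whose adjusted p was missing for 3, and 0% of all tested genes called by edgeR. At an unadjusted p under 0.05, 5 Hox genes were higher in ih_DCTC, among them Hoxb7, Hoxb8, Hoxb13 and Hoxc10. The share of all tested genes at that unadjusted limit is not given here, so this count has no background and only describes the genes. The log2 difference was 1.37 for Hoxb7, with a 95% interval of 0.21 to 2.52, and 1.19 for Hoxc10, with 0.11 to 2.27. For Hoxa7 it was -0.15 (-0.78 to 0.48) and for Hoxd8 -0.14 (-0.86 to 0.57). Intervals this wide do not show equal levels. Libraries of the groups did not overlap for 4 genes, among them Hoxb2, Hoxc6 and Hoxc8, beside 10.4% of all genes.

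**Figure D4:**
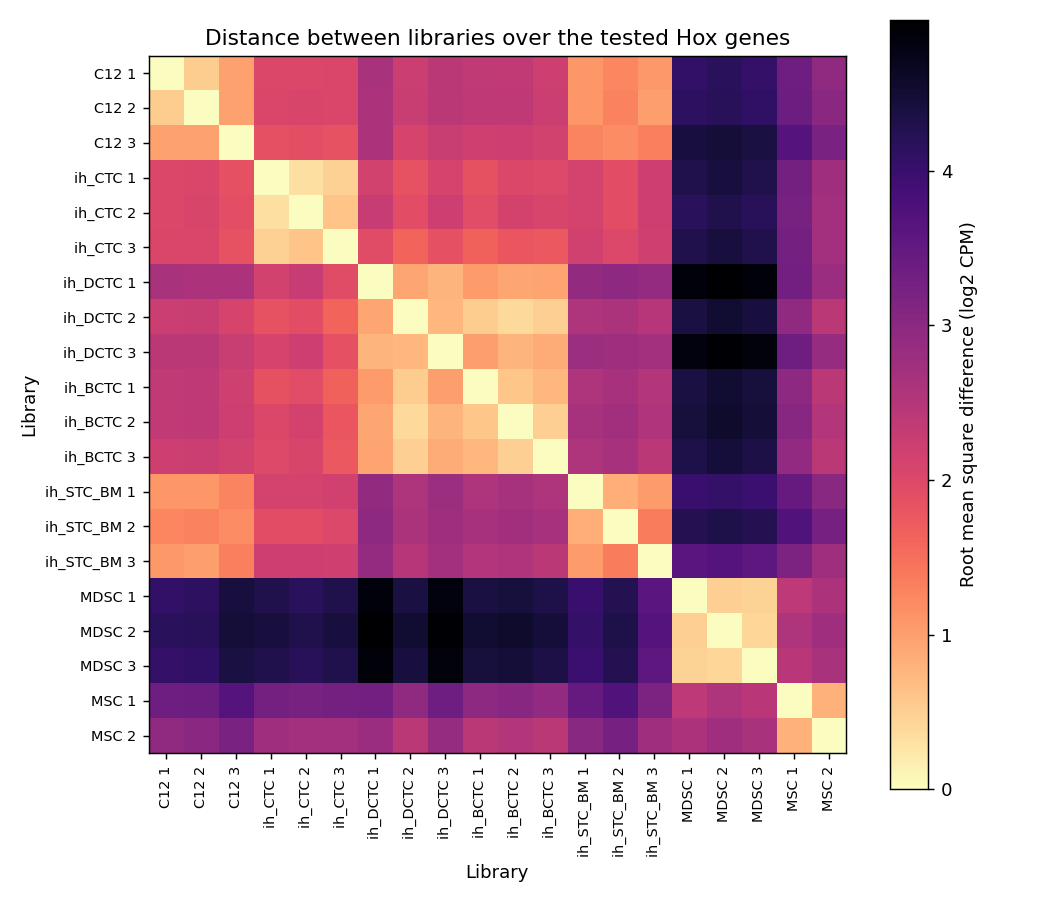
Distance between each pair of the 20 libraries, as the root of the mean squared difference over 34 tested Hox genes in log2 CPM (with a prior count of 2), with both axes listing the libraries by group and darker colours for larger differences. ih_DCTC and ih_BCTC form a shared light block, C12 and ih_STC_BM a weaker one, and MDSC is dark against every line.

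The Hox profile as a whole was compared by the same distance between libraries. It averaged 0.77 (0.38 to 1.04) between ih_DCTC and ih_BCTC libraries (mean and range of 9 library pairs), beside 0.82 (0.75 to 0.93) among ih_DCTC libraries and 0.61 (0.49 to 0.74) among ih_BCTC libraries. Between C12 and ih_STC_BM it was 1.17 (1.01 to 1.32), beside 1.08 (0.85 to 1.35) among ih_STC_BM libraries and 0.83 (0.52 to 0.99) among C12 libraries. The distances among C12 libraries thus all lay below those between C12 and ih_STC_BM. Between ih_CTC and each other line it was 1.91 (1.63 to 2.12) for ih_BCTC, 1.99 (1.61 to 2.28) for ih_DCTC, 1.99 (1.85 to 2.06) for C12 and 2.09 (1.91 to 2.21) for ih_STC_BM. MDSC lay farthest from the lines, from 3.97 (3.56 to 4.33) for ih_STC_BM to 4.74 (4.38 to 4.98) for ih_DCTC, and MSC lay from 2.71 (2.41 to 3.03) for ih_BCTC to 3.25 (2.95 to 3.67) for C12. Over all tested genes the pair C12 and ih_STC_BM was not set apart in this way, with 1.37 (1.19 to 1.77) beside 1.39 (1.11 to 1.69) for C12 and ih_CTC.

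Of the 46 other annotated genes that lie within the spans of the 4 clusters, most of them antisense or noncoding, 7 were detected in some group and 23 had no count anywhere. Hoxa11os, the transcript opposite Hoxa11, was off where that gene was: it had 11.9, 13.7 and 4.70 CPM in C12, 17.8, 10.98 and 13.6 in ih_DCTC, 10.97, 9.29 and 8.59 in ih_BCTC and 3.45, 1.22 and 4.40 in ih_STC_BM. It had no count in any ih_CTC or MDSC library, and 2.08 and 1.49 CPM in MSC. No source used here gives the strand setting of the counting, so reads of Hoxa11 and Hoxa11os may not be fully told apart. Gm53, a gene between Hoxb9 and Hoxb13, had 16.9 ± 7.78 CPM in C12, 20.01 ± 4.54 in ih_CTC, 12.9 ± 3.72 in ih_DCTC, 13.6 ± 2.54 in ih_BCTC and 8.89 ± 5.45 in ih_STC_BM, 1 count in MDSC and none in MSC, so it was on in the same groups as Hoxb13. Hotairm1, a noncoding RNA gene of the Hoxa cluster, had 2.69 ± 0.909 CPM in C12, 2.82 ± 0.630 in ih_STC_BM and 1.53 ± 0.724 in ih_DCTC, and under 1.1 CPM in all ih_CTC, ih_BCTC, MDSC and MSC libraries. Hoxaas2, Gm15050, Hoxd3os1 and Gm28230 were detected in 1 to 3 groups each, with group means of at most 3.95 CPM.

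Lists of genes that act with or on Hox genes are set beside the share of all tested genes called, which was 61.7% in C12, 55.3% in ih_CTC and 59.3% in ih_DCTC over MDSC, and 32.1% in ih_STC_BM and 36.7% in ih_BCTC over MSC. Of the 9 TALE cofactors, which bind DNA with Hox proteins, 3 were higher and 1 lower in C12 than in MDSC, 3 and 3 in ih_CTC, and 4 and 1 in ih_DCTC, with medians of 0.52, 0.59 and 0.65 on the log2 scale. Over MSC, 4 were higher in ih_STC_BM and 2 in ih_BCTC and 0 lower, with medians of 0.81 and 0.43. Meis2 was at 14.2 ± 6.998 CPM in C12, 29.9 ± 2.86 in ih_CTC and 25.3 ± 4.94 in ih_DCTC, against 0.0736 ± 0.128 in MDSC, and its log2 fold change in C12 was 7.36 (SE 0.67, adjusted p = 6.40e-08). Against MSC, with 2.29 ± 0.735 CPM, it was 3.02 (SE 0.53, adjusted p = 0.000292) in ih_STC_BM and 3.16 (SE 0.53, adjusted p = 0.000156) in ih_BCTC. Meis1 rose over MDSC by 2.20 (SE 0.36, adjusted p = 5.38e-05) in C12.

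Of 20 Polycomb genes, with a median of -0.61 in C12 over MDSC, 6 were higher and 7 lower in C12 than in MDSC (3 and 6 in ih_CTC, 4 and 5 in ih_DCTC), and 5 higher and 1 lower in both ih_STC_BM and ih_BCTC than in MSC, so 13 of 20 were called in C12, near the 61.7% of all genes, and 9 of 20 in both ih_CTC and ih_DCTC, below the shares there. In C12 the largest changes with at least 5 CPM were Cbx6, 5.11 (SE 0.28, adjusted p = 2.28e-10), Pcgf2, 4.85 (SE 0.33, adjusted p = 2.05e-09), and Cbx2, 4.44 (SE 0.43, adjusted p = 1.21e-07), all members of the complex that compacts chromatin, and Jarid2, which recruits the methylating complex, at -4.00 (SE 0.47, adjusted p = 1.34e-06). Of 12 trithorax and demethylase genes, with a median of -1.19 in C12 over MDSC, 3 were higher and 7 lower in C12 than in MDSC, 2 and 4 in ih_CTC, and 3 and 5 in ih_DCTC, while 2 were higher in ih_STC_BM and 3 in ih_BCTC than in MSC and 0 lower. Kdm6b, which removes the Polycomb mark, was at 659.8 ± 27.1 CPM in MDSC, 16.9 ± 2.08 in MSC and 45.8 ± 23.4 in C12, and its log2 fold change was -3.85 (SE 0.35, adjusted p = 7.58e-08) in C12 over MDSC but 2.10 (SE 0.39, adjusted p = 0.000475) in ih_STC_BM over MSC.

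Among 14 genes upstream of Hox expression (retinoid genes, Cdx genes and the signal gene Gdf11), 9 were tested and 8, with Gdf11 among them, differed among the 5 lines. That count is to be set beside the share of all tested genes that differed in the same F test, given above with the Hoxc cluster. Cdx1, Cdx2 and Cdx4, which switch on central Hox genes in the embryo, were too low to test. The median log2 fold change over MDSC was 0.48 in C12 and 3.43 in ih_CTC, with 3 higher and 2 lower in C12 and 6 and 3 in ih_CTC. Rarb, a retinoic acid receptor and target, was at 11.9 ± 2.14 CPM in ih_CTC and under 1 CPM on average in every other group. Crabp1, which binds retinoic acid in the cell, was at 745 ± 160.4 CPM in ih_BCTC, 471 ± 268 in ih_DCTC, 244 ± 257 in ih_STC_BM, 231 ± 25.7 in ih_CTC and 40.5 ± 26.7 in C12, against 0.369 ± 0.112 in MDSC and 0.307 ± 0.435 in MSC. Cyp26b1, which degrades retinoic acid, rose in C12 over MDSC by 7.92 (SE 0.78, adjusted p = 1.88e-07). Aldh1a2, which makes it, was at 82.6 ± 51.98 CPM in MSC and had no count in ih_STC_BM or ih_BCTC.

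Of 34 other transcription factors that mark body regions, 28 were tested, with a median log2 fold change of 7.09 in C12 over MDSC, and 26 were higher and 0 lower in C12 than in MDSC, 24 and 0 in both ih_CTC and ih_DCTC. Factors without counts in MDSC, such as Isl1, Gata4 and Barx1, had enough counts only through other groups. They could not be called lower in a line, so the lack of lower calls was partly fixed by the count filter. Against MSC, 11 were higher and 4 lower in ih_STC_BM and 13 and 2 in ih_BCTC. Among the lines 19 of 28 differed, to be set beside the share of all tested genes in that F test, given above with the Hoxc cluster. Hand1, a factor of the heart and ventral mesoderm, was at 16.5 ± 3.60 CPM in C12 and 0 in the other 4 lines. Pitx1, which marks the hindlimb, was at 13.4 ± 0.915 CPM in ih_CTC, 19.6 ± 6.70 in ih_DCTC and 14.2 ± 1.25 in ih_BCTC but at 1.19 ± 0.758 in C12 and 0.664 ± 0.494 in ih_STC_BM, and at 13.6 ± 3.15 in MSC. Pitx1 was lower in ih_STC_BM than in MSC, at -4.40 (SE 0.64, adjusted p = 4.90e-05).

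Genes next to the clusters, outside them, were called in both directions. Of 18 listed neighbours 13 were tested, with 6 higher and 4 lower in C12 than in MDSC, 1 higher and 3 lower in ih_STC_BM than in MSC, and 4 and 3 in ih_BCTC, and with median log2 fold changes of 0.83, 0.54 and -0.02. Of all tested genes, 61.7%, 32.1% and 36.7% were called in these comparisons, so the 4 of 13 in ih_STC_BM are near the share of all genes. Skap2, outside one end of Hoxa, was lower in C12 than in MDSC, at -1.52 (SE 0.20, adjusted p = 5.83e-06), and in ih_BCTC than in MSC, at -2.53 (SE 0.22, adjusted p = 1.18e-07), where 7 of 11 Hoxa genes were called higher. Evx1 and Evx2, at the tail ends of Hoxa and Hoxd, were too low to test.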

How the data were processed

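Per the labels, RNA was extracted with TRIzol and made into libraries with an Illumina TruSeq kit. The deposited values are expected counts per gene made by the authors, and the submitters' processing notes list STAR, RSEM 1.2.26 and DESeq2 without their roles. No source used here names the genome build. The annotation deposited with the counts matched GRCm38 coordinates for 38 of 39 Hox genes. A deposited table of alignment statistics by the authors gave the intron shares, in percent of reads.

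Expected counts were rounded, filtered with filterByExpr (minimum count 10, minimum total 15), scaled with TMM and fitted over all 20 libraries in edgeR 4.0.16 (R 4.3.3, limma 3.58.1) with a mean per group, 13 residual degrees of freedom and robust quasi-likelihood tests. Every adjusted p in the text, unless DESeq2 1.42.0 is named, is Benjamini-Hochberg adjusted over the 15779 genes tested, with a threshold of 0.05. The procedure was run on simulated counts with known changes, for C12 over MDSC only and with the same spread set for all genes and groups. That simulation did not model genes silent in a whole group or an unequal spread between groups, so it does not test calls of that kind. Levels per kb use the summed exon length of GENCODE M21. A fold against a group without counts is a lower bound from 3 counts over the group, and one against 1 to 3 counts has a 95% counting interval. Tables were handled in Python 3.11.15 (numpy 2.4.6, pandas 2.3.3, matplotlib 3.10.9).

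Per-library values were printed for the 4 highest genes of each cluster, genes called in a precursor comparison at 5 CPM or more and genes whose detection separates lines; other lists name up to 4 called genes with the largest change at 5 CPM or more. Values of 1 Hox gene and 2 other genes are not reported here, though sums and counts over all genes include them. The members, gene lists and tests were chosen with earlier results of these data known. Replicate numbers follow accession order only. Pairs of MDSC libraries differed by a chi-square of 1.70 to 3.21 per degree of freedom, against 24.3 to 265 in other groups. An alternative chosen after seeing the data therefore summed them to 1. Other alternatives were RLE and upper quartile scaling, no count filter, DESeq2, a covariate for the intron share, leaving out line libraries with under 3% of reads in introns, and leaving out each library. Leaving out the libraries with few intron reads keeps only C12 library 3 and ih_STC_BM library 2 of those lines. A call lost in that fit cannot be told apart from a loss of replicates.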

Additional observations from a re-analysis of the deposited data

How the results depend on the processing

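No Hox call changed direction. Of 325 calls over the 9 reference comparisons and the pairs of lines, RLE scaling kept 324, upper quartile scaling 323, DESeq2 316, no count filter 312, the intron covariate 306, the fit with MDSC libraries summed to 1 303 and leaving out line libraries with few intron reads 302. Upper quartile scaling moved the median of all genes in C12 over MDSC from 0.03 to 0.30. Leaving out each library gave 14 to 27 called Hox genes in ih_BCTC over MSC, 16 to 25 in C12, 14 to 23 in ih_CTC and 17 to 29 in ih_DCTC, the lowest in each case without MSC library 1. The cause was not tested. With MDSC summed, C12, ih_CTC and ih_DCTC had 25, 26 and 30 calls over MDSC. Detection at 5 CPM left 14 Hox genes in C12, 15 in ih_CTC, 16 in ih_DCTC, 14 in ih_BCTC, 9 in ih_STC_BM, 0 in MDSC and 3 in MSC. No paired analysis was possible because the labels carry no replicate numbers that link libraries across groups. Depth limits the low genes: 3 counts over the C12 libraries are 0.0968 CPM, so genes near that level are not shown to be absent. MSC has 2 libraries, and its leukocyte markers cannot be told apart from its Hox level.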
